A study of Mus musculus with 5 samples.

Results

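The genes described here are 9 mouse genes of cholesterol efflux and lipid carriage: the liver X receptor genes Nr1h3 and Nr1h2, the transporter genes Abca1 and Abcg1, the apolipoprotein genes Apoe and Apod, and Pltp, Mylip and Lpcat3. They were followed by symbol and Ensembl identifier among 27729 genes in RNA-seq libraries of mouse embryonic fibroblasts (MEFs) that were being converted to neuron-like cells. All 9 were among the 13346 genes that reached 10 expected counts in at least 1 library. The list was chosen by the normalized counts of Abca1, which rose strongly in these same libraries, so the changes of the 9 genes against day 0 are given as a description of what led to the choice.

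Cells take up cholesterol in lipoproteins and also make it, and the cells of mammals cannot break its ring down. When cholesterol is in excess, oxysterols made from it bind the liver X receptors LXRα (Nr1h3) and LXRβ (Nr1h2), which act on DNA together with a retinoid X receptor. The receptors activate genes that move cholesterol out of the cell onto apolipoproteins, that lower its uptake and that change the lipids of the membrane. This programme is best known from macrophages and liver, and in the brain it supplies neurons with cholesterol on apolipoprotein E made by astroglia.

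The study asked how a defined medium turns fibroblasts towards a neuronal fate. MEFs of the ICR mouse strain were taken from mid-gestation embryos without heads and internal organs, and cells that held weakly to the plate had been washed off. Day 0 cells were in medium with fetal bovine serum. The cells of days 2, 5, 10 and 14 had been moved to 5C medium, which the labels call 6C. It is a serum-free DMEM/F12 with N2 supplement, the growth factor bFGF, the cytokine LIF, ascorbic acid and 2-mercaptoethanol. The labels place the last library on day 14, while the treatment text beside them names another day. There was 1 library per day, so no difference between days has a replicate check and no test was made. The removal of serum, each component of the medium and the time in culture cannot be told apart.

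The promoters of 4 genes are shown because they stand for different courses: Abca1 and Mylip, which were highest on day 10, Apod, which had the largest change, and Nr1h2, which changed little. Each is the stretch of 250 bases before the start site in RefSeq on GRCm38.p6, read 5′ to 3′ on the strand of the gene. They lie at chr4:53159896-53160145 (minus strand), chr13:45389492-45389741 (plus strand), chr16:31314809-31315058 (minus strand) and chr7:44553966-44554215 (minus strand), in that order. Capitals mark matches to the motifs named after the sequences, none of which overlap.
Abca1: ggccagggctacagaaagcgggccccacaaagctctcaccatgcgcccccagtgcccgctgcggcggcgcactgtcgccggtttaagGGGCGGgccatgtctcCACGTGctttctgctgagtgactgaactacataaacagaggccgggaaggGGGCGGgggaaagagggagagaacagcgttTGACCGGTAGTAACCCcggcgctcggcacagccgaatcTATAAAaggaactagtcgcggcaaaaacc
Mylip: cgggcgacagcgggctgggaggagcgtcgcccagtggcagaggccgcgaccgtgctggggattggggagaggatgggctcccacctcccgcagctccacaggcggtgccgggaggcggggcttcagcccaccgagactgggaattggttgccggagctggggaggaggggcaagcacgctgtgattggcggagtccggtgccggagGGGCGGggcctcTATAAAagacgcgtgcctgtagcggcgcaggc
Apod: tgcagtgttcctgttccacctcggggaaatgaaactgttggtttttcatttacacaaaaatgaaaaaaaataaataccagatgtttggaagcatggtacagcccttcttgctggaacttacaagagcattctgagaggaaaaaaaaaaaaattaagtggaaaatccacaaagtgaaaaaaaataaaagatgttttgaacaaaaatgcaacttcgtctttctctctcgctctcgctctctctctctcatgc
Nr1h2: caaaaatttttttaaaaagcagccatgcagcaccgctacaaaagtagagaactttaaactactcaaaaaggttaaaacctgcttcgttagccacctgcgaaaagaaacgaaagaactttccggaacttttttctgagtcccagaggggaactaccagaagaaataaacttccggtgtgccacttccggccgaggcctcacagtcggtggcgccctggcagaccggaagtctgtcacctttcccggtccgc
The 4 promoters differed in base composition, with 61.6% G and C in Abca1, 71.2% in Mylip, 36.4% in Apod and 48.4% in Nr1h2. RefSeq windows of 300 bases, 250 before and 50 after the start site, were found for 8 of the 9 genes, and the window of Abcg1 was not among them. They were searched on both strands beside all 32851 windows. The element that LXR and its partner bind is a direct repeat of AGGTCA with any 4 bases between its copies. With at most 2 mismatches over its 12 fixed bases it was in 3.02% of all windows and in none of the 8 genes. With 3 mismatches, a limit chosen after the data had been seen, it was in 21.9% of all windows and in Abca1 alone among the 8 genes, where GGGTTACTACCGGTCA was read on the opposite strand, from 67 to 52 bases before the start site. The Abca1 promoter is known to hold an LXR element. The E-box CACGTG was in 7.15% of all windows and in Abca1, from 147 to 142 bases before the start site. The GC box GGGCGG was in 35.7% of all windows and in those of Abca1, Lpcat3, Mylip and Pltp. TATAAA was in 13.6% of all windows and in a window of Abca1, Apoe, Mylip and Pltp. It began 29 bases before the start site in Abca1 and 32 bases before it in Mylip. In Pltp it began 36 bases after the start site, and in Apoe it was in the window of a start site inside the gene. The windows of Apod, Nr1h2 and Nr1h3 held none of these motifs at the limits used. Apoe had 3 windows and Nr1h3 had 2, so shares of genes are the like measure for the 8 genes. Of 27025 genes, 3.47% held the LXR element with at most 2 mismatches and 24.5% with at most 3. CACGTG was in 8.09% of these genes, GGGCGG in 38.2% and TATAAA in 15.7%.

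The total of expected counts, RSEM's estimates of reads per gene, ranged from 2253748 (day 2) to 3890334 (day 0), and 3 counts were worth between 0.771 and 1.33 CPM, the count scaled by the library total. On day 2 the ribosomal RNA overlapping gene Gm42418 held 4.79% of the counts. Fibroblast markers were high in every library, with a summed normalized count between 75379 on day 2 and 121015 on day 14 for the 14 genes of the list. Over all genes, long transcripts were higher and short ones lower from day 5 on: the median log2 change on day 10 was −1.47 in the shortest and 1.04 in the longest of 10 groups of genes by length. The median log2 change of all genes on day 10 was 0.14 with the TMM method, 0.60 with total counts and 1.09 on the TPM scale, so the changes below are to be read against the median of their own scale. Normalized counts are expected counts divided by effective library sizes from the TMM method and brought to a common scale, and log2 changes are of normalized counts plus 1. Ratios of normalized counts are given without this pseudocount and with exact Clopper-Pearson 95% intervals, which cover counting error only.

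On day 2, 5 of the 9 genes were more than 2-fold above day 0 (Abca1, Abcg1, Apoe, Apod and Nr1h3), and on days 5, 10 and 14 the same 5 with Mylip and Pltp. Nr1h2 and Lpcat3 did not pass 2-fold on any day, and none of the 9 was more than 2-fold below day 0. Of all 13346 genes, 15.2%, 20.2%, 28.7% and 24.5% were more than 2-fold above day 0 on days 2, 5, 10 and 14, and 13.1%, 13.6%, 22.3% and 19.9% were more than 2-fold below it. Of the genes past 2-fold in either direction, 53.7%, 59.6%, 56.3% and 55.2% were upward on these days, against 48.3%, 79.1%, 73.1% and 70.4% with total counts and 36.0%, 88.9%, 88.6% and 85.7% on the TPM scale. With TPM, 4, 8, 9 and 9 of the 9 genes passed 2-fold upward, and so did 1055, 4269, 7055 and 5548 of all 13346 genes. The median log2 change of the 9 genes was 1.35, 2.97, 3.16 and 3.14 on the 4 later days, where that of all genes lay between −0.03 and 0.14. These comparisons share the day 0 library. In bulk RNA, fewer cells of a type and less RNA per cell cannot be told apart.

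**Figure D1:**
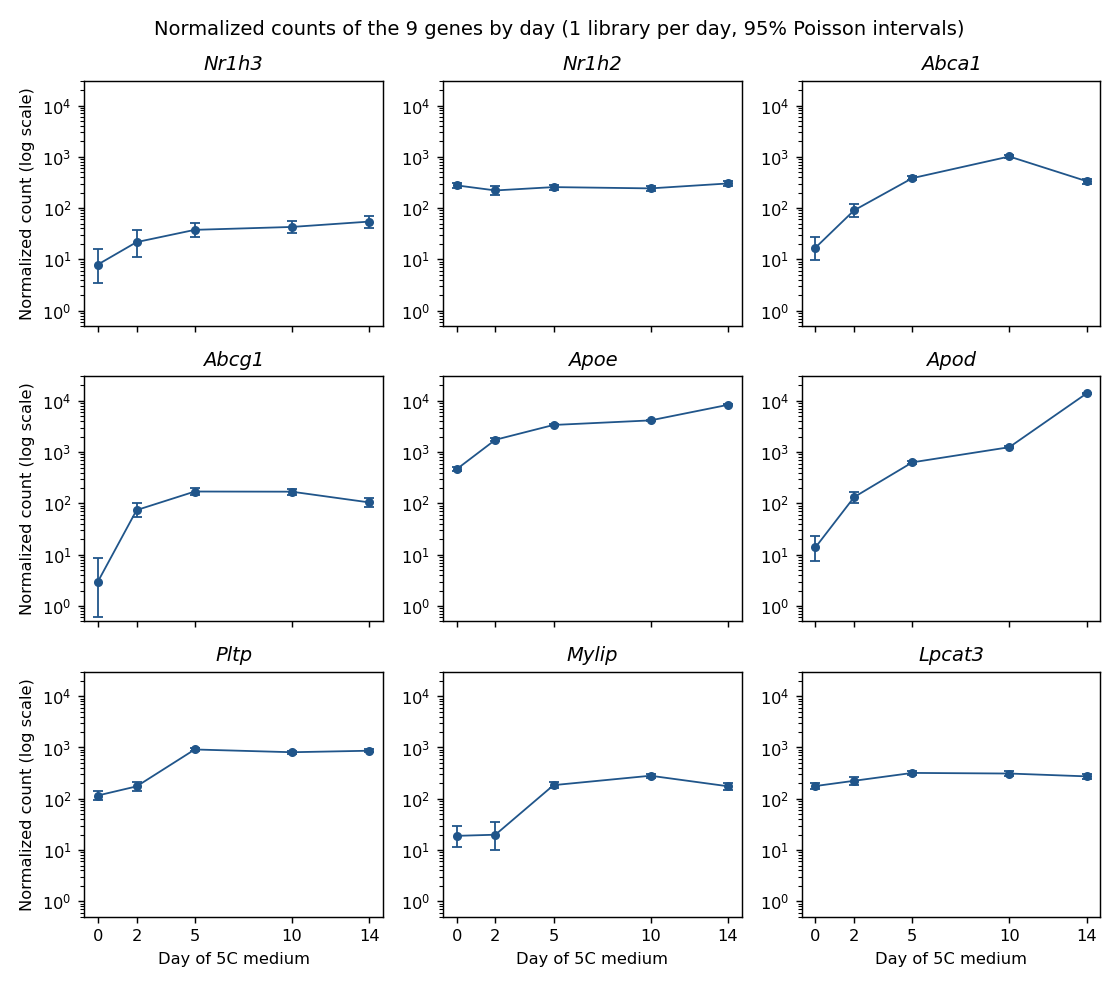
Normalized counts of the 9 genes (log scale) against the day of 5C medium, with 1 library per day and exact 95% Poisson intervals as bars. Apod climbs from 13.9 to 14075, Abca1 peaks at 1013 on day 10, and Nr1h2 stays between 221 and 302.

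From day to day the genes fell into different patterns. From day 2 to day 5, Abca1, Abcg1, Apod, Mylip and Pltp passed 2-fold upward, against 19.0% of all genes upward and 12.5% downward. From day 5 to day 10, Abca1 alone of the 9 passed 2-fold, against 12.8% of all genes upward and 9.5% downward. Apod was close behind at 1.97-fold, and total counts, quantile normalization and centring by length each put 2 of the 9 past 2-fold, and TPM 3. From day 10 to day 14, Apoe and Apod passed 2-fold upward and Abca1 downward, against 4.73% of all genes upward and 8.33% downward. Apoe lay at that threshold, and total counts, quantile normalization, TPM and centring by length each left only Apod above it. Between successive days, the shares of all genes were taken with the TMM method only.

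Nr1h3 (ENSMUSG00000002108, chromosome 2, 91184061 to 91202834 in GRCm38) encodes LXRα, the receptor best known from macrophages, fat and liver. In the order of the 5 days it had normalized counts of 7.92, 21.7, 37.6, 42.8 and 54.5. Each library was above the one before it, although neighbouring days from day 2 on did not differ beyond counting error. It was 5.41-fold higher on day 10 (2.58 to 13.1) and 6.89-fold higher on day 14 (3.28 to 16.7) than on day 0, when only 8 counts were seen. Nr1h2 (ENSMUSG00000060601, chromosome 7, 44549616 to 44553951) encodes LXRβ, which is made in most tissues. Its normalized counts were 277, 221, 256, 242 and 302 in the same order of days. The log2 change on day 10 was −0.19 (−0.43 to 0.04), and it was positive under 3 of the 8 alternatives, up to 1.25 on the TPM scale, where the median of all genes was 1.09. Levels of different genes can be compared per length, in TPM: Nr1h2 stood at 54.3 and Nr1h3 at 1.55 on day 0, and at 128 and 19.7 on day 14. Nr1h3 thus made up 2.77% of the TPM of the receptor pair on day 0, and 9.46%, 12.3%, 13.8% and 13.3% on the later days.

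Abca1 (ENSMUSG00000015243, chromosome 4, 53030787 to 53159895) encodes the transporter that loads cholesterol and phospholipid onto lipid-poor apolipoproteins. Abca1 transcripts were scarce on day 0, with a normalized count of 16.8, and the libraries of days 2, 5, 10 and 14 gave 90.5, 383, 1013 and 333. The day 10 library was the highest, 60.2-fold above day 0 (37.5 to 104), and the day 14 library was 3.04-fold below it (2.71 to 3.42). That put Abca1 among the largest changes of the 13346 genes, at rank 115 on day 10, and at rank 373 on day 14. Its transcript has a mean length of 10262 bases, and after centring on genes of like length its log2 change on day 10 was 4.79 in place of 5.83. The log2 change on day 2 was 2.36 with normalized counts and 1.19 on the TPM scale, where the level was only 0.57 on day 0 and the pseudocount of 1 weighs more.

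Abcg1 (ENSMUSG00000024030, chromosome 17, 31057675 to 31117988) encodes a half-transporter that passes cholesterol to lipoproteins already carrying lipid. The 5 libraries, from day 0 to day 14, held normalized counts of 2.97, 74.2, 171, 169 and 105. The step came earlier than that of Abca1, with equal levels on days 5 and 10, where Abca1 went up a further 2.64-fold (2.37 to 2.95). With 3 counts on day 0, the ratio of day 10 to day 0 was 57.0 with an interval of 19.3 to 278. From day 10 to day 14 Abcg1 was 1.62-fold lower (1.29 to 2.04). Per length, Abcg1 stood at 6.01 TPM and Abca1 at 2.57 TPM on day 2, Abca1 at 78.1 and Abcg1 at 37.1 TPM on day 10, and 21.0 and 18.7 TPM on day 14.

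Apoe (ENSMUSG00000002985, chromosome 7, 19696109 to 19699188) encodes apolipoprotein E, a lipid carrier that macrophages and astroglia secrete. It led the 9 genes in TPM up to day 10, and its normalized counts were 464, 1742, 3387, 4160 and 8371 from day 0 to day 14. Each day exceeded the one before it by more than counting error, and the ratio to day 0 reached 8.96 (8.16 to 9.87) on day 10 and 18.0 (16.4 to 19.8) on day 14. Its transcript is short, with a mean length of 962 bases, and lies in the length group whose median fell by 1.47 on the log2 scale by day 10. By TPM it was at rank 853 of all genes on day 0 and at ranks 280, 56, 15 and 8 on the later days.

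Apod (ENSMUSG00000022548, chromosome 16, 31296192 to 31314808) encodes apolipoprotein D, a lipocalin that binds small lipids and is made by fibroblasts, Schwann cells and other glia. Normalized counts of Apod were 13.9, 133, 632, 1249 and 14075 on the 5 days. The day 14 library stood apart from the others, 11.3-fold above day 10 (10.7 to 11.8) and 1016-fold above day 0 (605 to 1859). By TPM Apod went from rank 7574 on day 0 to rank 116 on day 10 and rank 3 on day 14, and its change against day 0 was then at rank 2 of the 13346 genes. Apoe exceeded Apod 25.4-fold in TPM on day 0 and 3.60-fold on day 10, whereas on day 14 Apod exceeded Apoe 1.53-fold. The counts of the 9 genes together were 0.0284% of the library on day 0, 0.298% on day 10 and 0.817% on day 14. Most of this sum was Apod and Apoe, which held 15746 and 9366 of its 27470 expected counts on day 14.

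**Figure D2:**
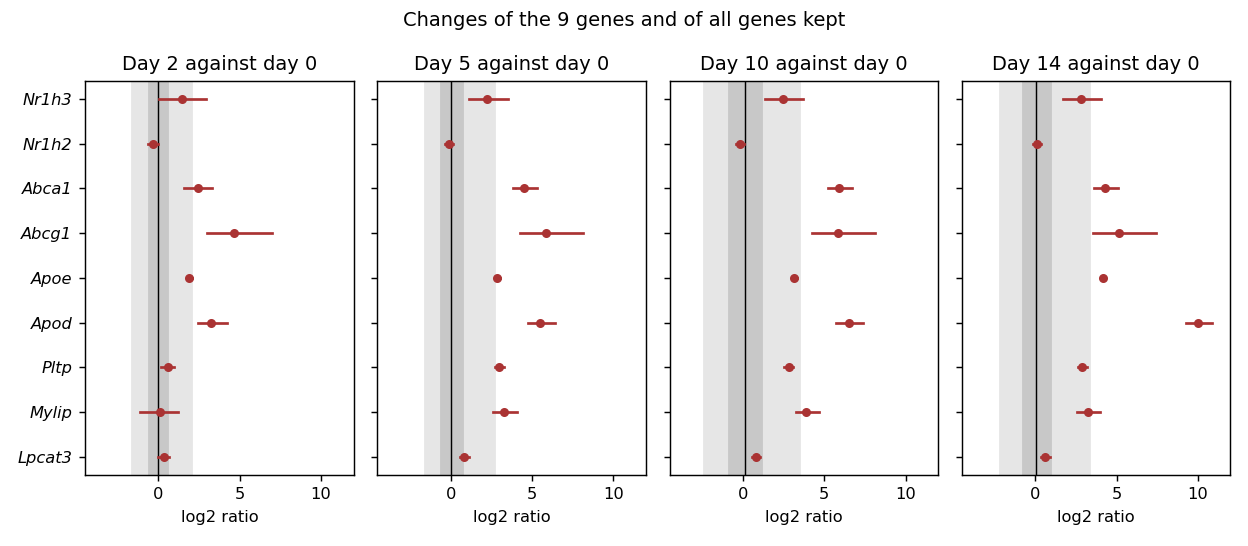
Log2 ratios of normalized counts to day 0 for the 9 genes on days 2, 5, 10 and 14, without a pseudocount, with lines for exact 95% Clopper-Pearson intervals. Light and dark bands hold the central 90% and 50% of the log2 changes of all 13346 genes, and on day 14 Abca1, Abcg1, Apoe and Apod lie wholly above the light band, which ends at 3.37.

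Pltp (ENSMUSG00000017754, chromosome 2, 164839518 to 164857711) encodes phospholipid transfer protein, which moves phospholipid between lipoproteins. From day 0 to day 14 its normalized counts were 116, 175, 915, 809 and 865. Nearly all of its change fell between days 2 and 5, a 5.27-fold difference (4.27 to 6.57), and the last 3 libraries lay within 1.13-fold of each other. Its exons overlap those of Ctsa on the opposite strand, which had between 1562 and 2817 expected counts per library, and a use of strand in the counting is not given in the sources used here. Lpcat3 (ENSMUSG00000004270, chromosome 6, 124663027 to 124704418) encodes the acyltransferase that puts polyunsaturated chains into membrane phospholipids. It stood at 177, 224, 319, 311 and 273 normalized counts on the 5 days. Its largest log2 change, 0.85 on day 5 (0.59 to 1.12), was above counting error and under 2-fold, and 3 of the 8 alternative scalings put it past 2-fold on day 10. Lpcat3 overlaps Emg1 on the opposite strand, which had between 159 and 386 expected counts.

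Mylip (ENSMUSG00000038175, chromosome 13, 45389742 to 45412022) encodes the ubiquitin ligase IDOL, which marks lipoprotein receptors for breakdown and so limits uptake. Libraries of days 0 and 2 held 18.9 and 19.9 normalized counts of it, and those of days 5, 10 and 14 held 185, 281 and 175. Days 0 and 2 did not differ beyond counting error (ratio 1.06, 0.455 to 2.34), and the step to day 5 was 9.28-fold (5.08 to 18.9). As with Abca1, day 10 was the highest, 15.0-fold above day 0 (9.45 to 25.1), and day 14 was lower, by 1.61-fold (1.35 to 1.92).

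**Figure D3:**
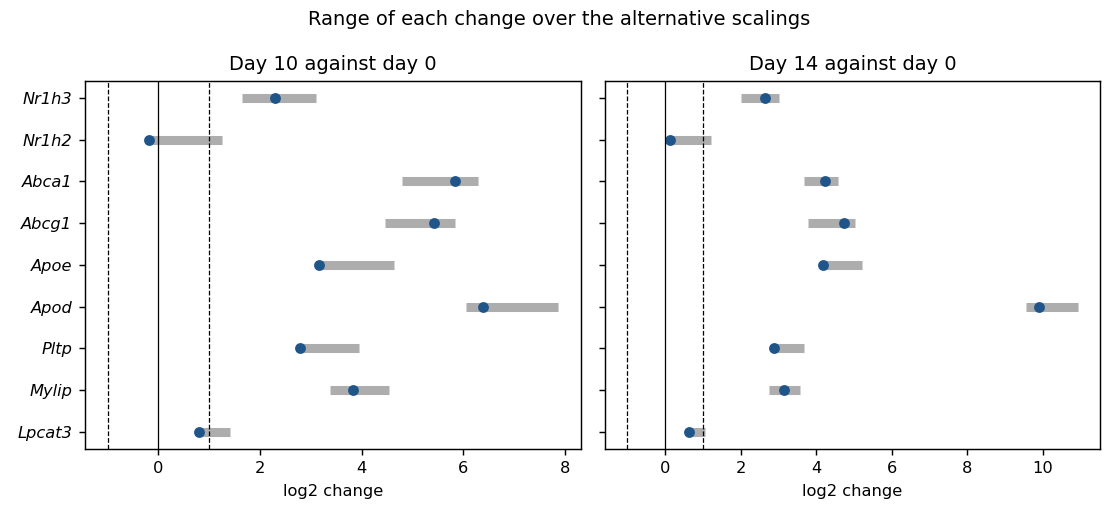
Log2 changes of the 9 genes on days 10 and 14 against day 0 as points, with grey bars from the lowest to the highest value over 8 alternative scalings, pseudocounts and centrings. Dashed lines mark 2-fold. Of the 9 bars for day 10, only that of Nr1h2 crosses 0.

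Within each library the order of the 9 genes by TPM shifted. On day 0 Apoe (177 TPM) led, followed by Nr1h2 (54.3), Lpcat3 (49.6) and Pltp (24.3), and Apod (6.96), Mylip (2.18), Nr1h3 (1.55), Abca1 (0.57) and Abcg1 (0.29) came after. On day 14 Apod (9087 TPM) led Apoe (5946), Pltp (323), Nr1h2 (128) and Lpcat3 (105), with Mylip (37.0), Abca1 (21.0), Nr1h3 (19.7) and Abcg1 (18.7) at the end. On day 0, counting intervals overlapped between the neighbours Nr1h2 and Lpcat3, Mylip and Nr1h3, Nr1h3 and Abca1, and Abca1 and Abcg1. On day 14 they overlapped between Nr1h2 and Lpcat3 and among Abca1, Nr1h3 and Abcg1. An overlap of separate intervals does not show that levels are the same, and the order of these neighbours was not tested.

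The courses of other genes were compared with those of the 9. Among 8248 genes that reached 100 expected counts in at least 1 library, 6 had log2 changes on the 4 later days within a Euclidean distance of 1 from those of Abca1. The 5 nearest were Tril (distance 0.713), a Toll-like receptor partner, Cp (0.720), the ferroxidase ceruloplasmin, the interferon-inducible genes Trim30a (0.754) and Iigp1 (0.909), and Fam129a (0.958). Tril had normalized counts of 1.98, 16.3, 65.6, 119 and 76.9 from day 0 to day 14, and Cp 4.95, 21.7, 127, 238 and 136. Abcg1 lay at a distance of 2.23 from Abca1. Within a distance of 1 lay 4 genes for Abcg1, 1100 for Lpcat3 and 1871 for Nr1h2, so genes with small changes had many more neighbours by this measure. For Apoe, 24 genes lay within 1, led by Tcp11l2 (0.556), the sialyltransferase gene St6gal1 (0.601) and the MHC class I gene H2-Q6 (0.679). For Apod none did, and the nearest were Slitrk6 (1.92), the muscle lamin-binding gene Mlip (2.23) and Rarres2 (2.29), which encodes the adipokine chemerin. Of the 9 genes themselves, Mylip and Pltp were the most alike, at a distance of 1.21. These distances rest on 5 libraries that the genes share.

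**Figure D4:**
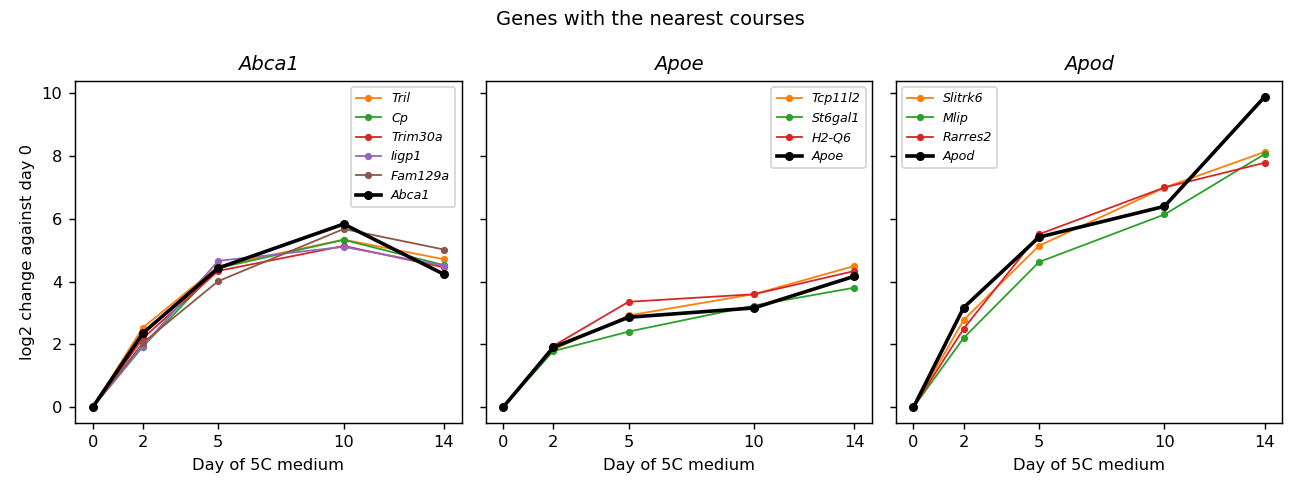
Log2 changes against day 0 by day of 5C medium for Abca1, Apoe and Apod (black) and for the genes with the nearest courses (colours). Abca1 turns down after day 10 with its 5 neighbours, and Apod is above all 3 of its neighbours on day 14.

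Markers of other cell types that make these proteins moved over the same days. Of 16 macrophage markers 15 had 10 or more counts in a library, and 15, 14, 12 and 11 of these were more than 2-fold above day 0 on days 2, 5, 10 and 14, with 10 in place of 15 on day 2 on the TPM scale. With normalized counts, 1 marker (Itgam) was more than 2-fold below day 0 on days 5, 10 and 14. The upward calls of Ptprc on days 2 and 14 rested on 1 and 4 counts against 0, within counting error. The summed normalized counts of the 16 markers were 313, 2455, 3985, 2187 and 1605 on the 5 days. Lyz2 alone held 2738 of the 3985 on day 5, and without it the sums were 205, 1278, 1247, 780 and 631. Of the defining markers, Ptprc had 0, 1, 8, 22 and 4 expected counts from day 0 to day 14, and Adgre1 had normalized counts of 2.97, 14.5, 62.1, 72.6 and 35.8, both highest on day 10 as Abca1 was. Csf1r had normalized counts between 41.4 on day 0 and 116 on day 2, and Itgam was at 61.9 on day 0, 177 on day 2 and 6.81 on day 10. Mrc1 (1.98 on day 0, 124 on day 10) and Cd14 (12.9 and 70.7) also peaked on day 10. Every other kept macrophage marker had its peak on day 2 or day 5, earlier than Abca1. Cd68 fell from 314 on day 5 to 124 on day 10, and Fcer1g from 112 on day 2 to 32.1. Cd14, Cd68 and Fcer1g were named after their values were seen.

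The 12 astroglial and Schwann cell markers had summed normalized counts of 146, 467, 1101, 5101 and 6168 on the 5 days, and 12 of 12 were past 2-fold upward on days 10 and 14. Sox10, a transcription factor of neural crest and glia, had normalized counts of 6.93 on day 0 and 1993 on day 14. Gfap, an intermediate filament of astroglia, had 0 counts on day 0 and a normalized count of 220 on day 10. That was 74.1-fold the level of 3 counts on day 0. For the 9 adipocyte markers the sums were 149, 228, 639, 1532 and 2685, and 7 of the 8 that were kept were past 2-fold upward on days 10 and 14. Adipoq and Plin1, at 0 counts on day 0, reached normalized counts of 236 and 134 on day 14. These were 79.5-fold and 45.2-fold the level of 3 counts on day 0. Fabp4 was at 61.4 on day 0 and 1676 on day 14. Apod and both of these lists were highest on day 14. Of the 13 neuron markers 7 were kept, and 2, 5, 5 and 4 were past 2-fold upward and 1, 2, 2 and 2 downward on days 2, 5, 10 and 14. They summed to 811 on day 0 and 2812 on day 14, when Gap43 alone held 2411, and without Gap43 the sum was 698 on day 0 and 402 on day 14. Tubb3 was at 22.1 and 161 on these days and Stmn2 at 448 and 163, and 6 of the 13 had no counts on day 14. Of the 14 fibroblast markers, 4, 5, 5 and 6 were past 2-fold upward and 2, 3, 4 and 3 downward on days 2, 5, 10 and 14. Lum was at 23.8 on day 0 and 1486 on day 14, Dcn at 102 and 2989, and Col3a1 at 1316 and 19193. Downward on day 14 were S100a4, from 8624 to 1626, Thy1, from 744 to 284, and Twist2, from 272 to 40.8, which were named after their values were seen. The part that such cells had in the levels of the 9 genes was not tested.

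**Figure D5:**
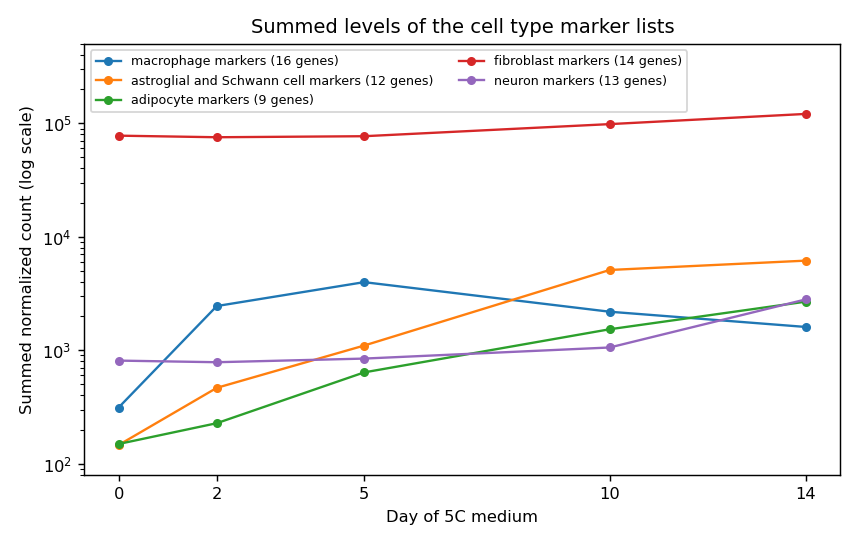
Summed normalized counts (log scale) of 5 lists of cell type markers by day of 5C medium, with 1 library per day. The macrophage sum is highest on day 5 (3985, of which Lyz2 holds 2738) and the others on day 14, when Gap43 holds 2411 of the neuron sum of 2812.

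The rest of the pathway was described by 9 lists with 118 genes, of which 86 were kept. Of these 86, 23, 38, 49 and 34 were more than 2-fold above day 0 on days 2, 5, 10 and 14, and 3, 4, 7 and 10 were more than 2-fold below it. On the TPM scale 13 were above and 4 below on day 2, and 62 above and 4 below on day 14. The shares of all genes given above belong with the counts from the TMM method. On the TPM scale, 1055, 7055 and 5548 of all kept genes were above 2-fold on days 2, 10 and 14. Below day 0 by more than 2-fold were 1874, 904 and 929 of them. The values that follow are normalized counts, and genes listed in brackets were named after their values were seen.

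Of 14 partners and coregulators of LXR, 1, 2, 8 and 2 were past 2-fold upward on days 2, 5, 10 and 14, and none downward (Rxra on day 2, Rxra and Rxrg on day 5, Rxrg and Ncoa2 on day 14). The count of 8 on day 10 became 3 after centring on genes of like length and 12 on the TPM scale. Rxra, the common partner of LXR, had normalized counts of 148, 346, 403, 506 and 287 from day 0 to day 14, a course that was highest on day 10 as for Abca1. Rxrg, the partner known from muscle and brain, had 0 counts on days 0 and 2 and a normalized count of 89.3 on day 10. The day 10 value was 30.1-fold the level of 3 counts on day 0. Ncoa2, a coactivator of nuclear receptors, was at 31.7 on day 0 and 204 on day 10.

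Of 18 other target genes of LXR, 11 were kept, and 7, 8, 9 and 8 of them were past 2-fold upward on days 2, 5, 10 and 14, with 1, 1, 2 and 2 downward. Their median log2 change on day 10 was 3.06. Cd5l, a secreted protein of macrophages, had 0 counts on day 0 and normalized counts of 12.7, 224, 385 and 333 on the later days. The day 10 value was 130-fold the level of 3 counts on day 0. Lpl, the lipase that frees fatty acids from lipoproteins, was at 85.0 on day 0, 450 on day 5 and 2279 on day 14. Scd1, a fatty acid desaturase, was at 186 on day 0, 4743 on day 10 and 3834 on day 14. Tgm2 and Arl4c were the genes past 2-fold downward, and they were named after their values were seen. Tgm2 had normalized counts of 238 on day 0 and 92.8 on day 10, and Arl4c of 224 and 62.0.

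Among 8 kept of 16 other ABCA and ABCG transporter genes, 2, 5, 6 and 4 were past 2-fold upward on days 2, 5, 10 and 14, and 1, 1, 2 and 2 downward (Abca5 on each day, with Abcg2 on days 10 and 14). Abca8b was at 6.93 on day 0 and 152 on day 10 and was lower again, at 40.2, on day 14. Abca2, a transporter of oligodendrocytes and neurons, was at 23.8 on day 0, 151 on day 10 and 150 on day 14. Abca5 went the other way, with 133 on day 0, 9.05 on day 2 and 55.0 on day 10. Of 18 other apolipoprotein genes 6 were kept, and 5, 4, 3 and 3 of these were past 2-fold upward on days 2, 5, 10 and 14 (Apoc1, Apol6 and Clu on each day), and 0, 1, 1 and 2 downward (Apol8 from day 5, with Apol9a on day 14). On day 2 Apoc1 had only 2 counts against 0 on day 0, which is within counting error. Clu, which encodes apolipoprotein J, was at 36.6 on day 0, 347 on day 5 and 330 on day 14. Of 9 other lipocalin genes, the family of Apod, 5 were kept and 2, 3, 4 and 4 were past 2-fold upward on these days (Lcn2, Ptgds, Orm1 and C8g on days 10 and 14), none of them with 100 counts in a library. The 2 of day 2 were Lcn2 with 1 count and C8g with 2 counts, both against 0 on day 0 and within counting error. So were Ptgds with 4 counts on day 5, and Ptgds with 3 and Orm1 with 4 on day 10, also against 0.

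Of 12 genes of lipoprotein and cholesterol uptake, 3, 6, 7 and 3 were past 2-fold upward on days 2, 5, 10 and 14, and 1 was downward on day 14 (Olr1). The count of 3 on day 14 was 9 on the TPM scale. Cd36, a scavenger receptor for modified lipoproteins and fatty acids, was at 11.9, 43.4, 198, 396 and 408 normalized counts over the 5 days. Lrp8 and Vldlr, receptors of apolipoprotein E, were under or near 2-fold except for Lrp8 on day 5 (88.5 against 27.7 on day 0) and Vldlr on day 10 (204 against 71.7). Of 17 kept genes of intracellular cholesterol transport, storage and oxysterol synthesis or breakdown, 3, 9, 8 and 6 were past 2-fold upward and 1 downward on day 14 (Cyp27a1, at 5 or fewer counts on both days compared). Cyp7b1, which hydroxylates oxysterols, was at 4.95, 88.6, 243, 186 and 222 over the 5 days, and Gramd1b, which carries cholesterol from the plasma membrane, at 17.8 and 170 on days 0 and 14. Cyp39a1, another oxysterol hydroxylase, had 1 count on day 0 and normalized counts of 81.4 on day 10 and 67.0 on day 14.

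Of 7 kept genes of lipoprotein remodelling, the group of Pltp, 2, 2, 2 and 3 were past 2-fold upward on days 2, 5, 10 and 14 (Lpl and Lbp, with Pon2 on day 14), and 1, 0, 1 and 1 downward (Lipg). Lbp, a lipid-binding relative of Pltp, had 0 counts on day 0 and normalized counts of 64.8 on day 5 and 172 on day 10. The day 10 value was 58.0-fold the level of 3 counts on day 0. Pon2 was at 120 on day 0 and 244 on day 14. Of 8 other lysophospholipid acyltransferase genes, the group of Lpcat3, 0, 1, 4 and 3 were past 2-fold upward on days 2, 5, 10 and 14 (Lpcat1, Lpcat2, Mboat2 and Lpgat1 on day 10), and 0, 1, 1 and 1 downward (Lpcat4), and the count of 4 became 1 after centring on length. Lpcat2 was at 37.6 on day 0, 205 on day 10 and 414 on day 14, and Lpcat1 at 78.2, 171 and 319. Lpcat4 was at 209 on day 0, 81.4 on day 5 and 29.3 on day 10, so that members of this family moved in opposite directions while Lpcat3 itself stayed under 2-fold.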

How the data were processed

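RNA of MEFs was sequenced in 1 library per day (0, 2, 5, 10 and 14), and libraries were placed by the day in their labels. The authors deposited expected counts per gene, estimates by RSEM that need not be whole, and TPM values, which are scaled by length to a fixed total per library. The submitters' processing notes name Bowtie, RSEM and mm10, without versions. FPKM values were not used. Gene symbols and coordinates came from GENCODE M21 (GRCm38), which matched 27247 of 27729 genes, and genes without a match held 0.359% of the counts.

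Expected counts were rounded to compute TMM effective library sizes over all 5 libraries (edgeR 4.0.16, R 4.3.3), and normalized counts were scaled to their geometric mean. Genes that reached 10 expected counts in at least 1 library were kept. Changes are log2 ratios with a pseudocount of 1, and a gene was counted past 2-fold. Intervals are exact Clopper-Pearson or Poisson 95% intervals of rounded counts. They cover counting error only, since reads without molecular identifiers are not independent molecules. With 1 library per day no p-value was computed. Where a gene had 0 counts on day 0, the ratio was taken to 3 counts, and the counting error of the later day was left out.

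The 9 genes and all lists were chosen with earlier results of these data known. Genes named beside the 9 are at most 3 per list with the largest absolute change among genes that reached 100 expected counts in at least 1 library, 4 macrophage markers, and the 5 genes nearest to Abca1 and 3 nearest to Apoe and to Apod by Euclidean distance of their 4 log2 changes. Alternatives were DESeq2 size factors (version 1.42.0), total counts, quantile normalization, TPM with a pseudocount of 1, a pseudocount of 5, library sizes without Gm42418 and Lars2, centring within 10 groups of genes by length, a 4-fold threshold, and filters of 50 counts and of 1 count. Library sizes without the day 2 library and the search with 3 mismatches were later additions, chosen after seeing the data. Results of some list genes that the naming rule or the counts would call for are not reported here. The scripts were tested on simulated data, in Python 3.11.15 with pandas 2.3.3 and scipy 1.17.1.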

Additional observations from a re-analysis of the deposited data

How the results depend on the processing

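With 1 library per day, neither differences between cultures nor those between library preparations can be measured, and genes with few counts on day 0 (Abcg1, Nr1h3, Apod, Abca1) have wide intervals. No paired analysis was possible because each day has 1 library. Counts of genes past 2-fold, those of single lists included, kept within 1.5 times of their value under DESeq2 size factors, library sizes without Gm42418 and Lars2, and library sizes without the day 2 library. A pseudocount of 5 moved no count of the 9 genes, of all genes or of all pathway genes by more, but it moved 7 counts of single lists, among them the other apolipoproteins upward on day 2 (3 in place of 5), the other lipocalins upward on day 2 (0 in place of 2) and on day 10 (2 in place of 4), and Olr1 and Cyp27a1 on day 14, which no longer passed downward. Of the 9 genes, 3 passed a 4-fold threshold on day 2 in place of 5. From day 2 to day 5, 9 passed upward on the TPM scale in place of 5. From day 5 to day 10, 2 passed with total counts, quantile normalization and centring by length and 3 on the TPM scale, in place of 1. From day 10 to day 14, each of these 4 gave 1 in place of 2. Between successive days, the numbers of all genes past 2-fold were not taken on these scales. The median log2 change of all genes against day 0 on the TPM scale was −0.20 on day 2 and 0.61 on day 5. These counts between successive days are therefore not read as a result about the 9 genes. Over all genes, the numbers upward from day 0 on days 2, 5, 10 and 14 (2023, 2690, 3826 and 3268) were 1055, 4269, 7055 and 5548 on the TPM scale and 715, 1161, 1850 and 1560 at 4-fold. With a filter of 50 counts they were 1203 on day 2 and 1721 on day 5, and without a filter 3503 on day 2. The numbers downward (1745, 1821, 2974 and 2657) were 390, 371, 1057 and 815 at 4-fold, and on days 5, 10 and 14 they were 531, 904 and 929 on the TPM scale. With total counts they were 1007 on day 5 and 1929 on day 10. Of the pathway genes, 13 in place of 23 were upward on day 2 and 62 in place of 34 on day 14 on the TPM scale. Downward, 1 with either total counts or TPM stood in place of 4 on day 5, 3 and 2 in place of 7 on day 10, and 4 with TPM in place of 10 on day 14. The cause of these shifts was not tested.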
